A study of Mus musculus with 8 samples.

Results

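The cytosolic ribosomal protein genes were followed in spermatocytes with and without Stra8-Cre deletion of Mfn2. The members were the protein-coding rows of the expression table whose names start with Rpl, Rps or Rplp and a digit, together with Rpsa, leaving out the S6 kinases (Rps6k), Rps19bp1 and names of pseudogenes. The rule gave 85 of the 54532 genes in the table. Of these, 77 were core subunit genes, with 43 of the large subunit, 3 of the stalk and 31 of the small subunit. The other 8 were paralogs, that is, further copies of a core gene: Rpl10l, Rpl39l, Rpl36al, Rpl22l1, Rpl7l1, Rpl3l, Rps27l and Rps27rt. The 4 core genes on the X chromosome were Rpl10, Rpl36a, Rpl39 and Rps4x. The rule uses name and biotype and no measured value, although the family was taken up with earlier results of these data known.

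Cytosolic ribosomes carry out protein synthesis outside mitochondria, and each is built from a small and a large subunit that hold 1 copy of most of these proteins around ribosomal RNA. Their mRNAs are short and abundant and carry a run of pyrimidines at the start, through which growth signalling controls their translation. In male meiosis the X chromosome is silenced at pachytene, and autosomal copies of some X-linked ribosomal protein genes, Rpl10l and Rpl39l among them, are known to be expressed in the testis. MFN2 (mitofusin 2) sits in the outer mitochondrial membrane, where it joins mitochondria to one another and to the endoplasmic reticulum.

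The 8 libraries were RNA-seq of spermatocytes from C57BL/6J mice, with 1 library for each combination of genotype, stage and age. MFN2 WT mice carried the loxP-flanked Mfn2 allele without Cre (Mfn2 loxp/loxp by the labels, while the study's methods also allow 1 floxed allele in controls), and MFN2 cKO mice were Mfn2 loxp/loxp; Stra8-Cre, in which Cre is driven in male germ cells from early spermatogonia onward and exon 6 of Mfn2 is removed. Cells were taken at postnatal day (PD) 24 and PD 52 as pachytene (P) and as leptotene and zygotene (L/Z) spermatocytes. The stages were separated by sedimentation through albumin and judged by size and shape, so a fraction can hold other cells. The values are FPKM, that is, fragments scaled to the length of the gene model and to the depth of the library. This length can differ from that of the mRNA, so levels of different genes are compared only roughly. With 1 library a group, a difference between 2 libraries has no replicate check, and no p-value was computed for it.

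Mfn2 was measured first. At PD 24 it stood at 82.2 FPKM in L/Z WT and 34.3 in L/Z cKO, and at 77.1 in P WT and 39.6 in P cKO. At PD 52 it stood at 97.5 in L/Z WT and 47.9 in L/Z cKO, and at 62.2 in P WT and 50.1 in P cKO. The cKO library was thus the lower of each pair, by the least in P at PD 52; these values cover the whole gene and not the removed exon alone. Depth was 14340665 to 20379950 reads on genes. The stage labels were checked against markers, and only some followed them. Of 8 pachytene markers, Piwil1 (168 to 278 FPKM in the 4 P libraries, 16.0 to 40.6 in the 4 L/Z libraries) and Tesmin (64.0 to 115 and 28.8 to 37.5) were higher in P without overlap, whereas Pgk2 and Ccna1 were lower in P than in L/Z in all 4 pairs. The sum of the 8 overlapped (2984 to 4452 FPKM in P, 2552 to 4140 in L/Z), as did the sum of 8 leptotene and zygotene markers (98.1 to 147 in P, 89.0 to 130 in L/Z). The sum of 12 spermatid markers was 537 to 2825 FPKM in L/Z and 147 to 1406 in P at PD 24, and 12088 to 21417 in L/Z and 2536 to 5286 in P at PD 52. In bulk libraries, fewer cells of a type and less RNA per cell cannot be told apart.

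Of the 85 members, 65 had an entry in the RefSeq table of start sites (GRCm38.p6), with 77 windows of 300 bases, 250 before and 50 after each start. A run of at least 8 C or T bases overlapping the 10 bases on either side of the start was present in 30 of the 77 windows (39.0%), against 13.7% of all 32851 windows, and a run of at least 12 in 12 windows (15.6%) against 3.92%. The letters CTTCCG, on either strand, were in 46 of the 77 windows (59.7%) against 16.9% of all. TATAA was in 23.4% of member windows and 24.9% of all, and CCAAT in 29.9% and 37.4%, also on either strand. The longest run overlapping the 10 bases on either side of the start is shown in capitals. It can lie wholly before or after the start. It is given for the member with the longest run, for a paralog with a run of 8 or more, and for the X-linked members and their autosomal copies. Each window is printed as 15 bases before the start and 15 from it.
Rpl34 chr3:130730323-130730352 (minus strand): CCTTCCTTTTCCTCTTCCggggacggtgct
Rps27l chr9:66946071-66946100 (plus strand): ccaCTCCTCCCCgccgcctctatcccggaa
Rpl39 chrX:37085208-37085237 (minus strand): cctaagctccgcctctagcgaCTTCTTCTa
Rpl10 chrX:74270801-74270830 (plus strand): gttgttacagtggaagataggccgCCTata
Rps4x chrX:102189377-102189406 (minus strand): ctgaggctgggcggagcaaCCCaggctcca
Rpl36a chrX:134585639-134585668 (plus strand): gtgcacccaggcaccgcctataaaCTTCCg
Rpl10l chr12:66284387-66284416 (minus strand): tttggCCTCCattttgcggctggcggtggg
Rpl39l chr16:10170213-10170242 (plus strand): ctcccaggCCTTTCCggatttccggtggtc
The run at Rpl34 was 20 bases long and began before the printed stretch. It was 9 bases at Rps27l, 8 at Rpl39 and 7 at Rpl39l, and 3 to 5 bases at the other 4. A match of letters is a description of these windows, and the start used in these cells was not measured.

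The summed level of the 77 core genes was high in 2 of the 8 libraries. At PD 24 it was 7675 FPKM in L/Z WT, 12520 in L/Z cKO, 7732 in P WT and 7225 in P cKO. At PD 52 it was 7075 in L/Z WT, 7662 in L/Z cKO, 14939 in P WT and 5903 in P cKO. The P WT library at PD 52 and the L/Z cKO library at PD 24 were thus 1.95 and 1.63 times the median library, and the other 6 lay between 0.770 and 1.01 times. As a share of all reads, core genes took 2.31% in P WT at PD 52 and 2.28% in L/Z cKO at PD 24, against 0.953% to 1.4% in the rest.

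The same 2 libraries stood out gene by gene. The P WT library at PD 52 was the highest of the 8 for 53 members and the L/Z cKO library at PD 24 for 31, and these were the 2 highest for 69 of 85. P cKO at PD 52 was the lowest for 52 members and L/Z WT at PD 52 for 13. For a core gene the highest library was 1.84 to 10.02 times the lowest, with a median of 2.84. Single members therefore ranged more widely than the sums by subunit: the large subunit genes summed to 0.767 to 2.004 times, the small subunit genes to 0.786 to 1.97 times and the stalk genes to 0.799 to 1.82 times their median library.

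**Figure D1:**
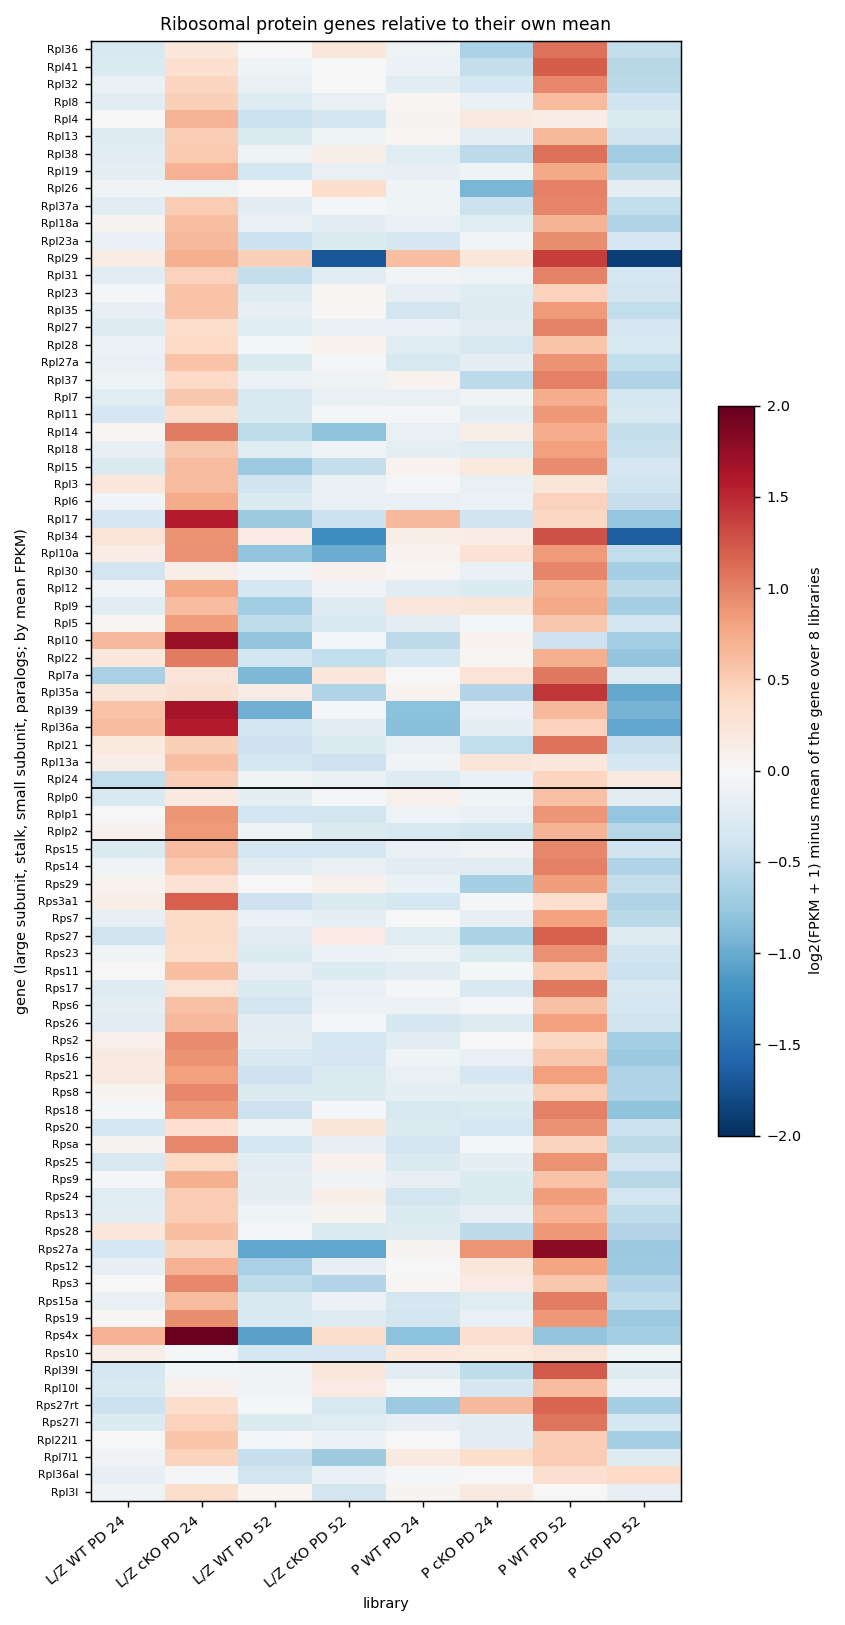
Heat map of log2(FPKM + 1) of 84 of the 85 members relative to the mean of each over the 8 libraries, with genes as rows grouped by subunit and libraries as columns. The columns of P WT at PD 52 and L/Z cKO at PD 24 are the highest for 53 and 31 of the 85 members.

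The stalk proteins, which recruit the GTPase factors of translation to the large subunit, held the most abundant member. Rplp0, their anchor, had the highest mean level of all members (545 FPKM) and was at 432, 603, 574 and 502 FPKM in L/Z WT, L/Z cKO, P WT and P cKO at PD 24, and at 470.4, 519, 800.2 and 458 in the same order at PD 52. Its highest library was 1.85 times its lowest, close to the low end of the core range. Rplp1, an acidic stalk protein (mean 513 FPKM), was at 470, 878, 442 and 429 FPKM at PD 24 and at 365, 365, 875 and 278 at PD 52 in that order. Rplp2, its partner, was lower throughout, at 41.2 to 112 FPKM, and had the same 2 highest libraries. Its gene model is longer (2072 bases against 499 for Rplp1), and in L/Z WT at PD 24 it had 2564 reads against 4427. Rpl36, a large subunit protein with a mean of 522 FPKM, reached 1042 in P WT at PD 52 and was at 316 to 569 elsewhere. Rpsa, a small subunit protein also known as a laminin receptor, was at 77.3, 147, 57.0 and 73.5 FPKM at PD 24 and at 58.3, 66.3, 102 and 51.6 at PD 52.

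The first question was what loss of MFN2 went with at each stage and age. For P at PD 24, the cKO and WT libraries had nearly equal levels of members: 41 of 83 members with more than 1 FPKM in either library were higher and 42 lower in cKO, the median difference was -0.00 on the log2(FPKM + 1) scale (all genes -0.10), and 2 members passed a limit of 2-fold upward and 1 downward. Over all genes under the same filter, 1.79% were past that limit upward and 6.29% downward. The 2 higher members were Rps27rt, a retrogene copy of Rps27 (38.3 FPKM in WT, 101 in cKO, a log2 difference of 1.38), and X-linked Rps4x (10.3 and 23.8 FPKM, 1.13), followed by Rps27a, which is made as a fusion with ubiquitin (40.4 and 72.5 FPKM, 0.83). The largest differences in the other direction were those of the large subunit genes Rpl17 (73.2 and 34.8 FPKM, -1.05), Rpl26 (142 and 79.1 FPKM, -0.83) and Rpl35a (20.9 and 12.8 FPKM, -0.66). Rps27rt shares 91.1% of its stretches of 50 bases with Rps27, so its value depends on how reads were assigned between both genes. Beside these values, all 12 spermatid markers were at least 2-fold lower in cKO (1406 FPKM in sum in WT, 147 in cKO) and 6 of 7 Leydig markers higher (19.7 and 139 FPKM); their part was not tested.

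For P at PD 52, members were lower in cKO almost without exception. Of 83 members tested, 81 were lower, 65 (78.3%) at least 2-fold, and 0 were 2-fold higher, whereas 5.78% of all genes were at least 2-fold lower and 5.21% higher. The median difference was -1.30 for members and -0.05 for all genes, and the summed core level in WT was 2.53 times that in cKO. These 65 were 34 large subunit, 25 small subunit, 2 stalk and 4 paralog genes. Rpl29 was at 208 FPKM in WT and 20.7 in cKO (-3.26), Rpl34 at 110.2 and 13.8 (-2.91), both large subunit proteins, and Rps27a at 139 and 22.8 (-2.55). The 3 members at the other end were Rps4x (10.5 FPKM in WT, 11.6 in cKO, 0.13), Rpl36al (2.90 and 3.06 FPKM, 0.06) and Rpl24 (2.24 and 1.74 FPKM, -0.24). Beside this result, the sum of spermatid markers was 5286 FPKM in WT and 2536 in cKO with 4 of 12 markers at least 2-fold lower in cKO, Sertoli markers summed to 586 and 276 FPKM with 4 of 9 lower, Leydig markers to 255.2 and 641 FPKM with 6 of 7 higher, and macrophage markers to 4.34 and 18.4 FPKM with 3 of 6 higher. The part of these cells in the result was not tested.

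For L/Z at PD 24 the direction was the other one. Of 84 members tested, 83 were higher in cKO, with a median difference of 0.73 against 0.08 for all genes, but only 5 (5.95%) were at least 2-fold higher and 0 were 2-fold lower, against 3.45% and 7.03% of all genes. The 5 were Rpl17 (36.5 FPKM in WT, 139 in cKO, 1.90), the X-linked Rps4x (31.2 and 77.7 FPKM, 1.29), Rpl10 (42.3 and 90.2 FPKM, 1.07) and Rpl39 (24.5 and 52.7 FPKM, 1.07), and the small subunit gene Rps3a1 (1.09). With 1.5-fold as the limit, 59 members were higher, against 11.9% of all genes. Rpl26 (142 and 139.7 FPKM, -0.02), Rpl35a (23.6 and 24.8 FPKM, 0.07) and Rpl36al (1.76 and 2.04 FPKM, 0.14) differed least. Markers of other cells moved here too: spermatid markers summed to 2825 FPKM in WT and 537 in cKO with 9 of 12 at least 2-fold lower, Leydig markers to 36.4 and 206 FPKM with 6 of 7 higher, macrophage markers to 29.0 and 89.2 FPKM with 3 of 6 higher, and red blood cell markers to 2.38 and 53.8 FPKM with 2 of 3 higher. None of the red blood cell markers was at 0 in either library, and their part in the result was not tested.

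For L/Z at PD 52 the members differed little as a group. The median difference was 0.15 over 83 members (all genes 0.02), 2 were at least 2-fold higher in cKO and 2 lower, and over all genes 4.83% were higher and 3.12% lower. Rps4x (8.48 FPKM in WT, 24.4 in cKO, 1.42) and Rpl7a of the large subunit (11.6 and 26.5 FPKM, 1.12) were higher, followed by Rpl39 (7.83 and 15.6 FPKM, 0.91). Rpl29 (110.2 and 23.7 FPKM, -2.17) and Rpl34 (50.5 and 18.6 FPKM, -1.39) were lower, followed by Rpl35a (22.1 and 12.6 FPKM, -0.76). Rps4x was thus higher in cKO in 3 of the 4 pairs by more than 2-fold and by 0.13 in the remaining one, and Rpl29 and Rpl34 were lower in cKO by more than 2-fold in both pairs at PD 52 and in neither at PD 24. Of the 85 members, 33 were lower in cKO in P and higher in cKO in L/Z at both ages. The share of all genes with this pattern was not computed, so the count describes members alone. In L/Z at PD 52 all 6 macrophage markers (15.1 FPKM in sum in WT, 126 in cKO), 6 of 7 Leydig markers (27.5 and 99.0 FPKM) and 4 of 6 Sertoli markers tested (23.8 and 66.4 FPKM) were at least 2-fold higher in cKO. So were 3 of 12 spermatid (12088 and 21417 FPKM) and 2 of 2 red blood cell markers tested. At least 2-fold lower were 2 of 8 spermatogonial, 2 of 8 leptotene and zygotene and 1 of 8 pachytene markers. The part of these cells was not tested.

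**Figure D2:**
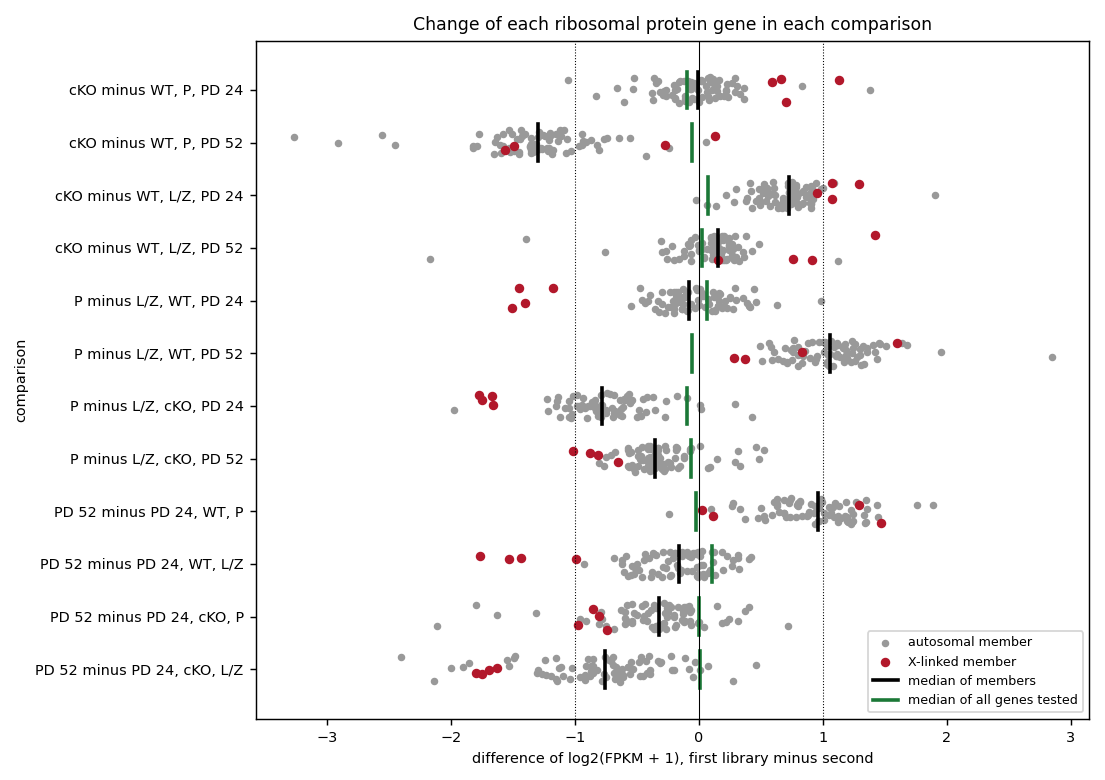
Log2(FPKM + 1) differences of members in the 12 comparisons of 2 libraries, with 1 point for each member, and the median of members beside the median of all genes passing the filter. The medians are farthest below 0 for cKO against WT in P at PD 52 (-1.30) and farthest above 0 for P against L/Z in WT at PD 52 (1.06).

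The second question was how pachytene cells differed from leptotene and zygotene cells. In WT at PD 24 they differed little: the median difference, P minus L/Z, was -0.08 (all genes 0.07), 0 members were at least 2-fold higher in P and 4 were lower, and 8.03% and 8.29% of all genes were higher and lower. The 4 were the X-linked genes Rps4x (31.2 FPKM in L/Z, 10.3 in P, -1.51), Rpl36a (20.9 and 7.01 FPKM, -1.45), Rpl39 (24.5 and 8.64 FPKM, -1.41) and Rpl10 (42.3 and 18.2 FPKM, -1.18), and no other member. At the other end stood Rpl17 (36.5 and 73.2 FPKM, 0.99), Rpl7a (14.0 and 22.3 FPKM, 0.63) and Rpl9 of the large subunit (0.46). Here 8 of 12 spermatid markers and 2 of 3 myoid markers tested (113 FPKM in sum in L/Z, 28.5 in P) were at least 2-fold lower in P. At least 2-fold higher were 6 of 9 Sertoli markers (244 FPKM in sum in L/Z, 605 in P). The part of these cells was not tested.

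In WT at PD 52 all 83 members tested were higher in P. At least 2-fold higher were 51 (61.4%) and 0 were 2-fold lower, against 9.90% and 10.3% of all genes, and the median difference was 1.06 (all genes -0.06). Rps27a was at 18.5 FPKM in L/Z and 139 in P (2.84), Rpl7a at 11.6 and 47.9 (1.95), and Rpl15, a large subunit gene, differed by 1.68. The smallest differences were those of Rps4x (0.28), Rpl10 (0.38) and Rpl24 (0.50), whose listed values are low. The P library also held more of the Sertoli and Leydig markers. All 9 Sertoli markers (23.8 FPKM in sum in L/Z, 586 in P) and all 6 Leydig markers tested (27.5 and 255.2 FPKM in sum) were at least 2-fold higher. At least 2-fold lower were 10 of 12 spermatid (12088 and 5286 FPKM in sum), 3 of 3 myoid markers tested (53.0 and 9.44 FPKM) and 2 of 6 macrophage markers (15.1 and 4.34 FPKM). The part of these cells was not tested.

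In cKO, most members were lower in P, by a median that was larger at PD 24. At PD 24 the median was -0.78 (all genes -0.09), with 0 members at least 2-fold higher and 18 of 84 (21.4%) lower, against 8.18% and 11.8% of all genes. Rpl17 (139 FPKM in L/Z, 34.8 in P, -1.97), Rpl39 (52.7 and 14.7 FPKM, -1.77) and Rpl36a (41.6 and 11.7 FPKM, -1.75) were lowest, while Rps27a (0.43), Rps27rt (0.29) and Rpl7a (0.02) were not lower. At PD 52 the median was -0.36 (all genes -0.06), and only Rps4x (24.4 and 11.6 FPKM, -1.01) was 2-fold lower, with 0 members 2-fold higher, against 15.3% and 9.41% of all genes. Rpl39 (-0.88) and Rpl36a (-0.81) followed it, and the paralog Rpl36al (0.52), Rpl10a (0.49) and Rpl7l1 (0.46), a relative of Rpl7, had the most positive values. Markers of other cells differed between these libraries as well. At PD 24, 8 of 9 Sertoli markers were at least 2-fold higher in P (199 FPKM in sum in L/Z, 736 in P), while 9 of 12 spermatid (537 and 147 FPKM), 4 of 6 macrophage (89.2 and 34.2 FPKM), 3 of 3 myoid (154 and 31.6 FPKM) and 2 of 3 red blood cell markers (53.8 and 2.86 FPKM) were lower. At PD 52 all 7 Leydig markers (99.0 and 641 FPKM) and 6 of 9 Sertoli markers (66.4 and 276 FPKM) were higher in P, and all 12 spermatid (21417 and 2536 FPKM) and 5 of 6 macrophage markers (126 and 18.4 FPKM) were lower. The part of these cells was not tested.

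The third question was what differed between PD 24 and PD 52. In P WT, members were higher at PD 52, with a median of 0.96 (all genes -0.02), 36 of 83 (43.4%) at least 2-fold higher and 0 lower, against 9.43% and 5.13% of all genes. Rps27rt (38.3 FPKM at PD 24, 145 at PD 52, 1.89), Rps27a (40.4 and 139 FPKM, 1.76) and Rpl39 (8.64 and 25.7 FPKM, 1.47) led, and Rpl17 (73.2 and 61.9 FPKM, -0.24), Rps4x (10.3 and 10.5 FPKM, 0.03) and Rpl4, which lines the exit tunnel of the large subunit (0.10), came last. All 12 spermatid markers (1406 FPKM in sum at PD 24, 5286 at PD 52) and 5 of 6 Leydig markers tested (19.7 and 255.2 FPKM) were at least 2-fold higher at PD 52 in these libraries, and 3 of 4 macrophage (15.6 and 4.34 FPKM) and 2 of 3 myoid markers tested (28.5 and 9.44 FPKM) were lower; their part was not tested.

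In L/Z WT the median was -0.16 (all genes 0.11), with 0 members at least 2-fold higher and 3 lower, against 7.94% and 5.38% of all genes. The 3 were X-linked: Rps4x (31.2 FPKM at PD 24, 8.48 at PD 52, -1.76), Rpl39 (24.5 and 7.83 FPKM, -1.53) and Rpl10 (42.3 and 15.03 FPKM, -1.43), and the fourth X-linked gene, Rpl36a, differed by -0.99. Rpl24 (0.42), Rps27rt (0.40) and Rpl29 (0.32) had the largest differences upward. At PD 52, 10 of 12 spermatid markers were at least 2-fold higher and 8 of 9 Sertoli markers lower (244 and 23.8 FPKM in sum); their part was not tested.

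In P cKO the median was -0.32 (all genes -0.00), with 0 members at least 2-fold higher and 4 lower at PD 52, against 13.6% and 5.24% of all genes. Rpl29 (92.8 FPKM at PD 24, 20.7 at PD 52, -2.11), Rpl34 (50.4 and 13.8 FPKM, -1.80), Rps27a (72.5 and 22.8 FPKM, -1.63) and Rps27rt (101 and 40.2 FPKM, -1.31) were the 4. Of these, Rpl34 was less than 2-fold lower when the reads of its pseudogenes were added. In L/Z cKO the median was -0.75 (all genes 0.01), with 0 members at least 2-fold higher and 27 of 84 (32.1%) lower, against 18.8% and 12.6% of all genes, and Rpl29 (129.9 and 23.7 FPKM, -2.41), Rpl34 (85.4 and 18.6 FPKM, -2.14) and Rpl17 (139 and 34.0 FPKM, -2.003) were lowest. With pseudogene reads added, Rpl34 and Rpl17 were less than 2-fold lower in L/Z cKO. In both P and L/Z, Rpl26 was the member with the largest difference upward (0.72 in P and 0.46 in L/Z), followed by Rpl36al (0.40) and Rps27 (0.38) in P and by the paralogs Rpl39l (0.28) and Rpl10l (0.07) in L/Z. Pseudogenes held 44.4% of the summed reads of Rpl26 in P at PD 24 and 5.18% at PD 52, and 45.6% and 5.82% in L/Z. With these reads added, Rpl26 was not higher at PD 52 in either. All 12 spermatid markers were at least 2-fold higher at PD 52 in both. In P cKO, 4 of 7 Leydig markers were also higher and 8 of 9 Sertoli markers lower (736 and 276 FPKM in sum). In L/Z cKO, 4 of 8 spermatogonial (167 and 44.5 FPKM), 5 of 8 leptotene and zygotene (130 and 89.0 FPKM), 4 of 8 Sertoli (199 and 66.4 FPKM), 3 of 7 Leydig (206 and 99.0 FPKM), 3 of 3 myoid (154 and 43.5 FPKM) and 2 of 2 red blood cell markers tested (53.8 and 3.96 FPKM) were lower. The part of these cells was not tested.

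Members have short mRNAs, with a median of 937 bases against 2695 for the other 21745 protein-coding genes, and short genes as a whole moved in some of these comparisons. For P WT, PD 52 minus PD 24, other protein-coding genes had a median of 0.86 with mRNAs up to 600 bases, 0.66 above 600 and up to 1000, 0.23 above 1000 and up to 2000, and -0.18 above 2000, and members in the same classes had 1.20, 0.93, 0.80 and 1.01. For cKO minus WT in P at PD 52, other genes had -0.62, -0.61, -0.32 and 0.01 and members -1.47, -1.31, -1.13 and -1.35. Members were therefore farther from 0 than other genes of the same length class in both. In P minus L/Z of WT at PD 52, other genes had 0.01, 0.26, 0.26 and -0.05 and members 1.26, 1.03, 0.85 and 1.07. In cKO minus WT of L/Z at PD 24, other genes had 0.11, 0.33, 0.29 and 0.05 and members 0.73, 0.75, 0.71 and 0.78. The part of mRNA length in the differences of members was not tested beyond this division.

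**Figure D3:**
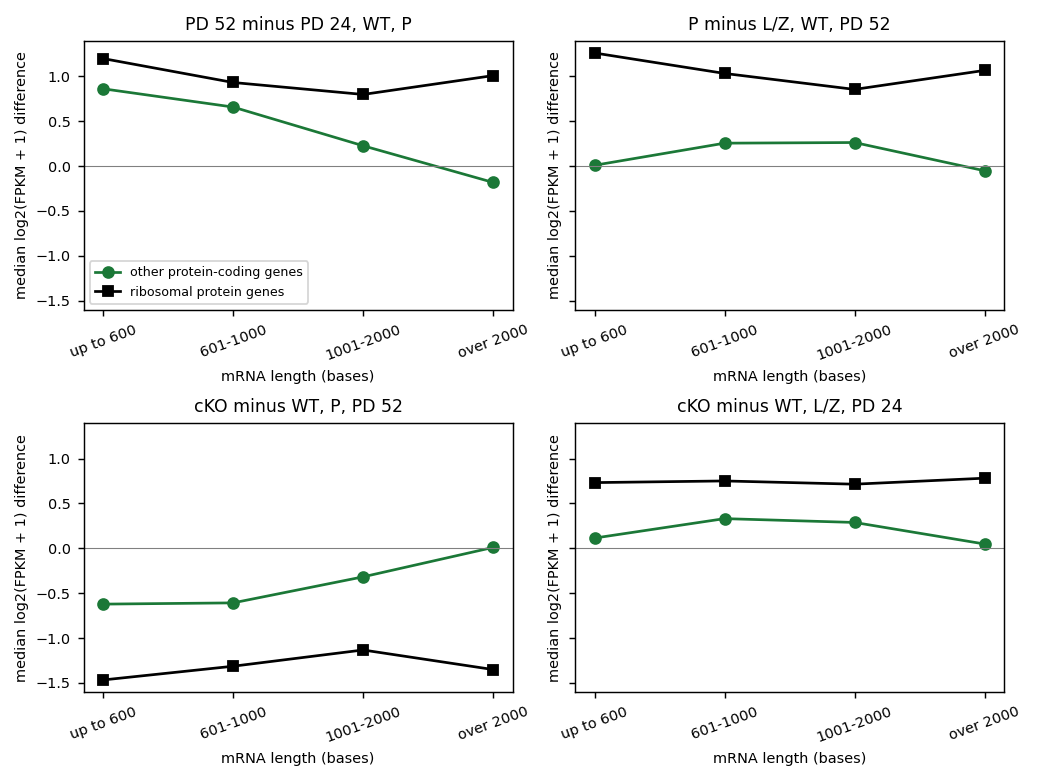
Median log2(FPKM + 1) difference by mRNA length class for members and for other protein-coding genes in 4 comparisons. In P WT, PD 52 minus PD 24, other genes pass from 0.86 in the shortest class to -0.18 in the longest, while members lie between 0.80 and 1.20.

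Effects common to several pairs of libraries were then tested by limma over the 21175 genes with more than 1 FPKM in at least 1 library, 84 of them members, since Rps10 did not pass. For genotype, limma called 0 members higher and 0 lower (3 genes higher and 0 lower in all, 0.0142% and 0%), with 1 member higher and 2 lower at an unadjusted p under 0.05, against 3.92% and 2.9% of all genes. These were Rps4x (0.99 with a standard error of 0.31, adjusted p = 0.574), Rpl35a (-0.95, SE 0.40) and Rpl29 (-1.31, SE 0.56), and Rpl34 (-0.91) and Rpl10 (0.54) had the next smallest p. The voom fit of limma, on reads recovered from the FPKM values, called 0 members as well, with 1 higher and 2 lower at an unadjusted p under 0.05. The median genotype difference of members was -0.09, and it was 0.27 without P WT at PD 52, with 77 of 84 members positive in place of 16 and 12 higher at an unadjusted p under 0.05 in place of 1. Over all genes the medians were -0.04 and -0.03, and 1273 of 21014 were higher at that limit without P WT at PD 52 in place of 830 of 21175.

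For stage, limma called 0 members in either direction against 11.8% of genes higher and 13.6% lower in P, with 0 members higher and 2 lower at an unadjusted p under 0.05 (18.3% and 21.9% of all genes): Rps4x (-0.98, SE 0.31, adjusted p = 0.0570) and Rpl10 (-0.78, SE 0.32, adjusted p = 0.112). Rpl36al (0.34), Rps27a (0.99) and Rpl36a (-0.80) came next. Without P WT at PD 52, limma called 10 members lower in P, against 12.7% of all genes, and these included all 4 X-linked genes: Rps4x (-1.35, adjusted p = 0.00588), Rpl39 (-1.32, adjusted p = 0.00715), Rpl36a (-1.39, adjusted p = 0.00748) and Rpl10 (-1.14, adjusted p = 0.0113). The other 6 were Rps18, Rps19, Rpsa, Rps28, Rpl22 and Rps3a1. Without L/Z WT at PD 52, Rps4x alone was called (adjusted p = 0.0323), and voom with all libraries called Rps4x and Rpl10.

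For age, limma called 1 member, Rps4x, lower at PD 52 by 1.09 on the log2 scale (SE 0.31, adjusted p = 0.0469), against 13.5% of genes higher and 7.55% lower, and the call was lost with the pair of libraries as a block, with no filter on low FPKM and without any 1 of 6 libraries, the exceptions being P WT at PD 24 and P WT at PD 52. Rps4x was lower at PD 52 in 3 of 4 pairs of libraries and 0.03 higher in P WT. Rpl10 (-0.95, adjusted p = 0.0700), Rpl4 (-0.46), Rpl13a of the large subunit (-0.46) and Rpl26 (0.59) followed. At an unadjusted p under 0.05, 0 members were higher and 2 lower, against 21.7% and 17.6% of all genes. Without P WT at PD 52, 28 members were called lower, against 12.9% of all genes. These p-values measure the spread between these 8 libraries, with 1 library a group. How many mice gave each library, and whether the P and L/Z libraries of a genotype and age came from the same mice, is not given in the sources used here.

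Whether the effects differed from one another was tested by interaction terms in the same way, and limma called 0 members for each of the 3 terms (1 gene higher, 0.00472%, and 0 lower over all genes for genotype by age, and 0 genes for the others). For genotype by age, the difference between cKO and WT was lower at PD 52 for 82 of 84 members, 4 of them at an unadjusted p under 0.05 and 0 in the other direction, against 3% and 6.11% of all genes. Each fit without 1 library leaves only 1 library for 1 combination of genotype and age, so medians are given for these fits. The number at an unadjusted p under 0.05 varied with the library left out. The member median passed from -0.90 (all genes 0.02) to -0.20 without P WT at PD 52, with 18 of 84 members positive, and to -0.43 without L/Z cKO at PD 24. It was -1.38 without P cKO at PD 24 and -1.65 without L/Z WT at PD 52. Rpl29 (-2.81, SE 0.49, adjusted p = 0.150), Rpl34 (-2.48, SE 0.59, adjusted p = 0.244) and Rps27rt (-2.15, SE 0.54, adjusted p = 0.268) had the smallest p. Voom called Rpl29 (adjusted p = 0.0126) and Rpl34 (adjusted p = 0.0328) in this term, with 16 lower at an unadjusted p under 0.05. In L/Z and P cKO at PD 52, pseudogenes held 64.3% and 65.7% of the summed reads of Rpl34 and 44.7% and 48.3% of those of Rpl29. The fits were not repeated with these reads added. For genotype by stage, the difference between cKO and WT was lower in P than in L/Z for 84 of 84 members, 19 at an unadjusted p under 0.05 and 0 in the other direction, against 2.85% and 1.19% of all genes, with the smallest adjusted p at 0.979; voom called 0, with 20 lower at an unadjusted p under 0.05. Here too, each fit without 1 library leaves only 1 library for 1 combination of genotype and stage. The number at an unadjusted p under 0.05 varied with the library left out. The member median of -1.08 (all genes -0.07) became -0.37 without P WT at PD 52, with 13 of 84 members positive, and -0.62 without L/Z cKO at PD 24. It became -1.75 without P WT at PD 24 and -1.54 without L/Z cKO at PD 52. For stage by age, all 84 were positive with 2 at an unadjusted p under 0.05 and 0 in the other direction (2.37% and 2.65% of all genes), and 46 of 84 were positive without P WT at PD 52. Voom called 0, with 5 at an unadjusted p under 0.05. The number passing in limma varied with the library left out, and each such fit leaves only 1 library for 1 combination of stage and age. The member median of 0.75 (all genes -0.02) became 1.60 without P cKO at PD 52, 1.31 without L/Z WT at PD 24 and 0.03 without P WT at PD 52.

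The X-linked core genes differed from most autosomal ones in their pattern over the libraries. Taken as the SD over the 8 libraries of the log2(FPKM + 1) difference from the core median, the departure was 0.97 for Rps4x, 0.74 for Rpl10, 0.62 for Rpl39 and 0.58 for Rpl36a. Only autosomal Rpl29 (0.95), Rps27a (0.73) and Rpl34 (0.71) departed as much or more than some of them. Rps4x encodes the X-linked form of a small subunit protein, Rpl10 a late-joining large subunit protein near the catalytic centre, Rpl39 a small protein of the exit tunnel, and Rpl36a a large subunit protein near the exit site of transfer RNA. Rpl10 lies at chrX:74270812-74273135 on the plus strand, Rpl39 at chrX:37082520-37085402 and Rps4x at chrX:102184941-102189394 on the minus strand, and Rpl36a at chrX:134585654-134588062 on the plus strand (GRCm38). In L/Z WT, L/Z cKO, P WT and P cKO, Rps4x was at 31.2, 77.7, 10.3 and 23.8 FPKM at PD 24 and at 8.48, 24.4, 10.5 and 11.6 at PD 52. Rpl10 was at 42.3, 90.2, 18.2 and 27.9 FPKM at PD 24 and at 15.03, 26.2, 19.8 and 16.2 at PD 52. At both genes L/Z cKO at PD 24 was the highest library by a wide margin, and P WT at PD 52, the highest for most members, was not raised.

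Rpl39 was at 24.5, 52.7, 8.64 and 14.7 FPKM at PD 24 and at 7.83, 15.6, 25.7 and 8.02 at PD 52 in the same order. Rpl36a was at 20.9, 41.6, 7.01 and 11.7 FPKM at PD 24 and at 10.1, 11.3, 18.6 and 6.00 at PD 52. These 2 genes had L/Z cKO at PD 24 as their highest library too, and P WT at PD 52 among their upper ones.

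As a group, the 4 had a median P minus L/Z difference of -1.43 in WT at PD 24, -1.71 in cKO at PD 24, -0.85 in cKO at PD 52 and 0.60 in WT at PD 52. Autosomal core genes had -0.08, -0.79, -0.36 and 1.07 in that order, other X-linked protein-coding genes -0.59, -0.67, -0.49 and -0.19, and other autosomal ones 0.11, -0.07, 0.02 and 0.03. The X-linked core genes were thus lower than the autosomal ones in all 4, and apart from WT at PD 52 they were also lower than other X-linked genes. In cKO minus WT they had 0.68 in P at PD 24, -0.88 in P at PD 52, 1.07 in L/Z at PD 24 and 0.84 in L/Z at PD 52, against -0.04, -1.30, 0.73 and 0.14 for autosomal core genes and 0.18, -0.27, 0.15 and 0.24 for other X-linked genes. With 4 genes in 8 libraries these medians are a description. Rpl36a, Rpl10 and Rps4x share 85.48%, 73.75% and 72.25% of their stretches with other genes, and Rpl39 shares 16.52%. The values of the first 3 named can therefore depend on how reads were assigned.

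The autosomal copies of 3 of these genes were steadier. Rpl10l, an intronless copy of Rpl10 at chr12:66283379-66284401 (minus strand), was at 200.5, 262, 242 and 195 FPKM at PD 24 and at 235, 276, 380.3 and 228 at PD 52 in L/Z WT, L/Z cKO, P WT and P cKO. Rpl39l, the copy of Rpl39 at chr16:10170226-10174911 (plus strand), was at 193, 237, 212 and 173 FPKM at PD 24 and at 234, 288, 576 and 204 at PD 52. Both copies exceeded the X-linked gene in every library, Rpl10l by 2.90 to 19.2 times and Rpl39l by 4.50 to 29.9 times. The lowest of these ratios was that of L/Z cKO at PD 24 for both. There Rpl10l had 4755 reads on a gene model of 1023 bases and Rpl10 3286 on 2053, so the ratio depends on these lengths. Rpl10 shares 73.75% of its stretches with other genes and Rpl39 16.52%, against 7.60% for Rpl10l and 0% for Rpl39l. The partner with the largest share for Rpl10, Rpl10-ps3, is listed as protein-coding. The effect of the assignment of reads on these ratios was not tested. Rps4l, the autosomal copy of Rps4x, is listed as a transcribed processed pseudogene and so is no member; at 104 to 177 FPKM it was 2.08 to 16.8 times Rps4x, with the lowest ratio again in L/Z cKO at PD 24.

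Rpl10l and Rpl39l were level with age in L/Z, with log2 differences of 0.23 and 0.28 in WT and 0.07 and 0.28 in cKO, while Rpl10 and Rpl39 were -1.43 and -1.53 in WT and -1.75 and -1.69 in cKO. In cKO minus WT of P at PD 52 Rpl39l was -1.49 and Rpl10l -0.74, so that the paralogs took part in the difference shared by most members there. In the other 3 pairs Rpl39l lay between -0.29 and 0.30 and Rpl10l between -0.31 and 0.38.

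**Figure D4:**
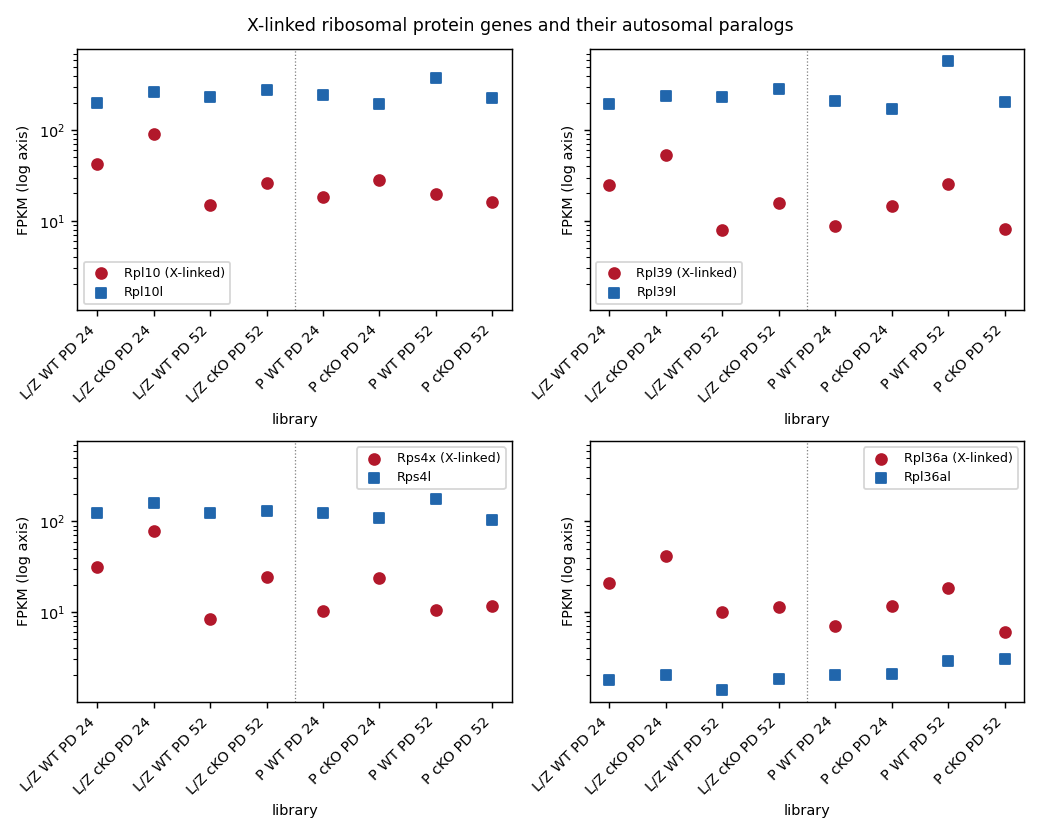
Levels (FPKM, log axis) of the X-linked members and of their autosomal copies in the 8 libraries. Rpl10l stays between 195 and 380.3 FPKM and Rpl39l between 173 and 576, above Rpl10 (15.03 to 90.2) and Rpl39 (7.83 to 52.7) in every library.

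The other paralogs did not exceed their parent genes, with 1 exception. Rpl36al, the autosomal relative of Rpl36a, was listed at 1.38 to 3.06 FPKM, and Rpl36a was 1.962 times it in P cKO at PD 52 and 3.48 to 20.4 times in the rest. Rpl22l1, a relative of Rpl22 that is known to bind RNA, was at 9.53 to 23.7 FPKM and at 0.430 to 0.791 times Rpl22. Rpl7l1 was at 5.68 to 14.6 FPKM, with Rpl7 at 5.59 to 12.2 times that. Rpl3l, known as the heart and skeletal muscle form of Rpl3, was at 0.333 to 1.20 FPKM (8 to 35 reads) and was the second lowest of all members by mean.

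Rps27 has 2 paralogs among the members. Rps27 itself was at 116, 201, 130 and 99.4 FPKM at PD 24 and at 132, 172, 352 and 129 at PD 52 in L/Z WT, L/Z cKO, P WT and P cKO. Rps27l, known as a target of p53, was at 49.3 to 135 FPKM and at 0.311 to 0.542 times Rps27. Rps27rt was at 47.3, 82.5, 38.3 and 101 FPKM at PD 24 and at 62.7, 50.9, 145 and 40.2 at PD 52; it matched Rps27 in P cKO at PD 24 (1.02 times) and was at 0.295 to 0.474 times Rps27 in the other 7 libraries. As 91.1% of its stretches of 50 bases are shared with Rps27, this ratio rests on how reads were assigned between both.

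Ribosomal protein genes have many processed pseudogenes, and reads that match both copies can be given to either. Cut into stretches of 50 bases, the transcripts of 3 members shared no stretch with another gene of the annotation, 56 shared fewer than 50% and 29 at least 50%, with a median of 35.9%. For 3 members a near-identical pseudogene differed strongly between libraries, and these pairs were chosen after their values were seen. Rpl34 and Rpl34-ps1 differed at 1 of 270 coding bases (99.6% identity), Rpl26 and Gm15772 at 2 of 429 with a gap of 6 bases (99.5%), and Rpl35a and Gm10243 at 1 of 330 (99.7%). A stretch of 30 coding bases around 1 mismatch, in capitals, shows how close each pair is (GRCm38, GENCODE coding sequence).
Rpl34 chr3:130729070-130729099 (minus strand): gaaagcacctaaatcTgcatgtggcgtgtg
Rpl34-ps1 chr6:71124726-71124755 (plus strand): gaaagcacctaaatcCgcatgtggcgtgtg
Rpl26 chr11:68903283-68903312 (plus strand): tggcacaaccgtccaTgtgggcatccaccc
Gm15772 chr5:3236703-3236732 (plus strand): tggcacaaccgtccaCgtgggcatccaccc
Rpl35a chr16:33057513-33057542 (plus strand): gagatgtgcttatgtgtataaGgcaaaaaa
Gm10243 chr6:48523652-48523681 (plus strand): gagatgtgcttatgtgtataaAgcaaaaaa
In these coding exons a read must cover a mismatch, or reach into the flanking untranslated part or an intron, to tell the copies apart.

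Rpl34 was at 54.1, 85.4, 49.8 and 50.4 FPKM at PD 24 and at 50.5, 18.6, 110.2 and 13.8 at PD 52 in L/Z WT, L/Z cKO, P WT and P cKO, and Rpl34-ps1 was at 13.8, 22.6, 10.2 and 9.11 and then at 10.8, 248, 17.6 and 195. The pseudogene was thus high in the 2 cKO libraries at PD 52, where Rpl34 was low, and pseudogenes held 64.3% and 65.7% of the summed reads there against 3.37% to 4.94% elsewhere. With these reads added to Rpl34, its cKO minus WT difference at PD 52 passed from -1.39 to -0.01 in L/Z and from -2.91 to -1.504 in P. Adding them left P at PD 24 at 0.02. Between ages in cKO, Rpl34 was then less than 2-fold lower at PD 52 in both P and L/Z.

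Rpl26 was at 142, 139.7, 142 and 79.1 FPKM at PD 24 and at 149.8, 192.3, 302 and 131 at PD 52, and Gm15772 was at 27.3, 381, 23.0 and 203 and then at 28.1, 33.6, 50.7 and 19.8. Here the pseudogene was high in the 2 cKO libraries at PD 24, with 45.6% and 44.4% of the summed reads against 5.18% to 6.38% elsewhere. With the reads added, Rpl26 went from -0.02 to 0.76 in L/Z and from -0.83 to -0.08 in P at PD 24 in cKO minus WT.

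Rpl35a was at 23.6, 24.8, 20.9 and 12.8 FPKM at PD 24 and at 22.1, 12.6, 55.0 and 9.26 at PD 52. Gm10243 was at 1.91, 39.3, 0.744 and 15.3 FPKM at PD 24 and at 3.21, 20.1, 4.68 and 13.9 at PD 52, so it was the higher of each pair in all 4 cKO libraries. Pseudogenes held 17.0% to 21.5% of the summed reads of Rpl35a in cKO and 2.75% to 6.04% in WT. With the reads added, the cKO minus WT difference of Rpl35a was 0.30 in L/Z at PD 24, -0.47 in P at PD 24, -0.53 in L/Z at PD 52 and -2.32 in P at PD 52.

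Rpl29 stayed lower in cKO at PD 52 with its 26 listed pseudogenes added. Partners not listed as pseudogenes were left out of this sum, among them Uimc1, which shares 26.5% of the stretches of Rpl29. Whether reads of Rpl29 were assigned to them was not tested. Rpl29 was at 87.8, 129.9, 120.1 and 92.8 FPKM at PD 24 and at 110.2, 23.7, 208 and 20.7 at PD 52. Its pseudogenes together held 44.7% and 48.3% of the summed reads in the 2 cKO libraries at PD 52 and 9.63% to 13.7% in the rest. The cKO minus WT difference at PD 52 passed from -2.17 to -1.52 in L/Z and from -3.26 to -2.54 in P, and the ratio of cKO to WT in P from 0.0998 (95% interval 0.0890 to 0.112, for counting error only) to 0.173.

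For Rpl17, 17 pseudogenes held 50.6% to 81.8% of the summed reads, and adding them reduced some of its differences but not all. The difference passed from 1.90 to 0.65 in cKO minus WT of L/Z at PD 24, from -1.05 to -0.04 in P at PD 24 and from 0.99 to 0.06 in P minus L/Z of WT at PD 24. At PD 52, Rpl17 stayed at least 2-fold lower in cKO in P and at least 2-fold higher in P than in L/Z of WT. In P WT it turned from -0.24 between ages to higher at PD 52. With the pseudogene reads of each member added, 0 members in place of 1 were 2-fold lower in cKO in P at PD 24 and 1 in place of 2 in L/Z at PD 52, and the counts of the other comparisons stayed within 1.5 times. The effect of the assignment of reads on the values in the table was not tested further.

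**Figure D5:**
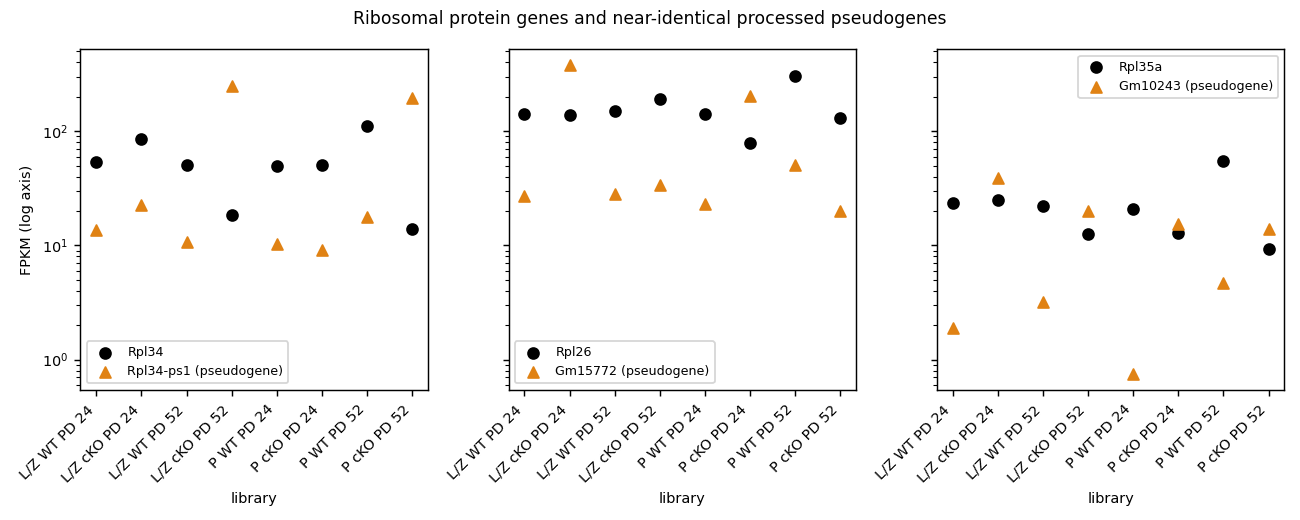
Levels (FPKM, log axis) of Rpl34, Rpl26 and Rpl35a and of their near-identical pseudogenes in the 8 libraries. Rpl34-ps1 reaches 248 and 195 FPKM in the cKO libraries at PD 52, and Gm15772 reaches 381 and 203 in the cKO libraries at PD 24.

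At the other end of the scale, 3 core genes stayed under 5 FPKM in every library. Rps10, a small subunit protein, had the lowest mean of all members (0.621 FPKM, 0.260 to 0.944), and pseudogenes held 95.1% to 98.6% of its summed reads, with Rps10-ps2 alone at 57.0 to 142 FPKM. Rpl24, of the large subunit, had a mean of 1.48 FPKM (0.719 to 2.41) and shared stretches with the processed pseudogenes Gm9385 (1.98 to 9.38 FPKM) and Gm12254 (1.60 to 5.16 FPKM). Rpl13a was the third. For each of the 3, the partner with the largest share of stretches was not listed as a pseudogene. It was RPS10-NUDT3 for Rps10 (24.9%), Gm28037 for Rpl24 (69.4%) and Gm45713 for Rpl13a (41.1%). These partners were not part of the pseudogene sums. The low values of these 3 core genes are as listed and cannot be read as the level of their mRNA.

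Genes that act with ribosomal proteins were taken as 6 lists. Fau, whose product is a ubiquitin-like protein fused to a small subunit protein, was at 404 FPKM in WT and 171 in cKO (-1.24) in P at PD 52. Rack1, a scaffold protein of the small subunit, was at 45.5 and 20.8 (-1.09), so that both were at least 2-fold lower in cKO. The 14 translation factor genes, whose mRNAs are known to start with a pyrimidine run as well, moved less. None of the 14 was 2-fold changed in that comparison (median -0.30) or in P WT between ages (median 0.20), where members had -1.30 and 0.96, and their sum stayed between 2502 and 3206 FPKM over the 8 libraries.

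Of the 23 genes of pre-rRNA processing, 2 were at least 2-fold lower in cKO in P at PD 52 (median -0.39), namely Nhp2 (33.6 FPKM in WT, 12.9 in cKO, -1.32) and Nop10 (114 and 54.1 FPKM, -1.07), which are both small proteins of the box H/ACA particles that guide pseudouridine. Of the 19 genes of subunit assembly and export, 0 were changed in that comparison (median -0.17). In L/Z cKO between ages, 9 of 23, 6 of 19 and 5 of the 11 genes of rRNA transcription were at least 2-fold lower at PD 52, with medians of -0.80, -0.72 and -0.52 beside -0.75 for members. Nucleolin (Ncl, 33.8 and 8.60 FPKM, -1.86) and Nop56 (14.0 and 3.44 FPKM, -1.75), a core protein of the particles that guide ribose methylation, had the largest differences of the processing list.

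Myc, a transcription factor known to drive ribosome production, was the only gene of the rRNA transcription list past 2-fold in cKO minus WT, and it was higher in cKO in all 4 pairs: 1.15 and 5.07 FPKM in P at PD 24 (1.497), 0.941 and 4.29 in P at PD 52 (1.45), 4.54 and 13.9 in L/Z at PD 24 (1.43) and 0.541 and 6.09 in L/Z at PD 52 (2.20). The 11 regulators of the translation of these mRNAs, among them Larp1 and Mtor, had 0 genes past 2-fold in any of the 4 pairs. In P at PD 52 Larp1 was at 91.6 FPKM in WT and 139 in cKO (0.60), and in L/Z at PD 24 at 97.8 and 63.4 (-0.62). For genotype, limma called none of the genes of the 6 lists.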

How the data were processed

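The deposited table holds 1 FPKM value per gene and library for 54532 genes, made by the authors from their RNA-seq reads with no replicates pooled; all its 8 value columns were matched to a library by name, and 0 columns were left out. The submitters' processing notes list CASAVA 1.4 and Bowtie 0.12.2 and the builds mm8 and mm9, without roles, while the coordinates of 98.1% of genes are those of GRCm38 (GENCODE M21), which is the build used for positions here. FPKM multiplied by gene length and divided by the value of 1 read gave whole reads for 100% of values, within 0.001 of a whole number. PCR reads carry no molecular identifiers, so intervals on read counts cover counting error only.

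Differences between 2 libraries were taken on log2(FPKM + 1), with a pseudocount of 1, over genes with more than 1 FPKM in at least 1 of them. This scale understates the differences of low genes. The 12 comparisons change genotype, stage or age alone. Effects common to several pairs were fitted by limma 3.58.1 (R 4.3.3), with genotype, stage and age as terms (4 residual degrees of freedom), or with 1 interaction (3 residual degrees of freedom), and p-values were adjusted by Benjamini-Hochberg over all 21175 genes, with calls at 0.05. The test named by the study needs counts and replicates and was not used here. The voom fit of limma on recovered reads called 8 genes higher and 0 lower for genotype, 2735 higher and 3334 lower for stage, and 3188 higher and 2183 lower for age.

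Stretches of 50 bases shared with other transcripts of GENCODE M21 measured how far a member can be told from its copies. In an alternative added after seeing the data, reads of pseudogenes that share at least 5% of a member's stretches, scaled to depth and length, were added to it. Python 3.11.15 was used for the rest.

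The gene family, whose rule uses no measured value, and the gene lists were chosen with earlier results of these data known. Named were the paralogs and their parents, the X-linked members, Rplp0, Rplp1, Rplp2 and Rpsa, in each comparison the 3 largest differences in either direction among members with at least 20 reads, the 3 highest and 3 lowest means, the 5 smallest p-values of each common effect, and for the other lists the 2 largest differences; pseudogenes and members named for their sharing were added after seeing their values. Protein sequences and the authors' reads were not used here. Values of some genes are not reported here by name, although they enter the counts and sums.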

Additional observations from a re-analysis of the deposited data

Results flagged for a closer look

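The summed FPKM of the 77 core ribosomal protein genes was lower in cKO than in WT in both P pairs and higher in both L/Z pairs, but for the pairs nearest to 1 the direction depends on the scale. The ratio of cKO to WT was 0.934 in P at PD 24 and 0.395 in P at PD 52, below 1 in both, whereas it was 1.63 in L/Z at PD 24 and 1.08 in L/Z at PD 52, above 1 in both. These 4 ratios were picked out because every P pair lay on one side of 1 and every L/Z pair on the other. The difference was not tested as a summed value. Gene by gene, limma called 0 of 84 members for genotype by stage. At an unadjusted p under 0.05, 19 were lower in P, against 2.85% of all genes (voom 20, with 0 called). That number varied with the library left out. The member median of -1.08 became -0.37 without P WT at PD 52 and -1.75 without P WT at PD 24. As a share of recovered reads the ratio was 1.09 in P at PD 24 and 1.02 in L/Z at PD 52, and as a share of the summed FPKM of all genes 1.07 and 0.889, so P at PD 24 turned on both scales and L/Z at PD 52 on the second. In P at PD 52 (0.413 and 0.412) and L/Z at PD 24 (1.63 and 1.53) the direction was the same on all 3. Each ratio rests on 1 library a group.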

How the results depend on the processing

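Each group has 1 library, so no difference between 2 libraries has a replicate check, and limma had 4 residual degrees of freedom. No paired analysis by replicate number was possible because the labels give none; the pair of libraries was used as a block instead. Reads shared with pseudogenes limit the values of members, and not only of the 29 with at least 50% of stretches shared. Rpl34 (11.0%), Rpl26 (44.0%) and Rpl17 (44.7%) lie below 50% and changed when pseudogene reads were added. The median log2 change of members between genotypes in P at PD 24, near 0, went from -0.0046 to 0.046 with further median-of-ratios scaling, and no other median of a comparison of 2 libraries changed sign under the alternatives run. The median genotype difference of members over all libraries was -0.09, but 0.27 without P WT at PD 52 and 0.08 without P cKO at PD 52. The cause of these changes and of those below was not tested.

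With 1.5-fold in place of 2-fold, the members past the limit in cKO minus WT were 6 higher and 4 lower in P at PD 24, 59 higher in L/Z at PD 24 and 4 higher in L/Z at PD 52. In P minus L/Z they were 2 higher in WT at PD 24, 77 higher in WT at PD 52, 62 lower in cKO at PD 24 and 9 lower in cKO at PD 52. In PD 52 minus PD 24 they were 71 higher in P WT, 10 lower in L/Z WT, 1 higher and 20 lower in P cKO and 56 lower in L/Z cKO, and in all 12 comparisons 5.19% to 29.3% of all genes passed this limit upward and 9.25% to 27.5% downward. With only the 56 members that share fewer than 50% of their stretches, cKO minus WT had 0 higher in P at PD 24, 2 higher in L/Z at PD 24 and 0 higher in L/Z at PD 52, P minus L/Z had 1 lower in WT at PD 24, 11 lower in cKO at PD 24 and 0 lower in cKO at PD 52, and PD 52 minus PD 24 had 1 lower in L/Z WT, 2 lower in P cKO and 17 lower in L/Z cKO, all by 2-fold and from fewer members. With a pseudocount of 0.1, 1 member was higher in P minus L/Z of WT at PD 24. With pseudogene reads added, 0 members were lower in cKO in P at PD 24 and 1 in L/Z at PD 52.

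Further median-of-ratios scaling gave member medians of -1.20 (cKO minus WT, P, PD 52), 0.19 (cKO minus WT, L/Z, PD 52), -0.23 (P minus L/Z, WT, PD 24), 0.94 (P minus L/Z, WT, PD 52) and -0.41 (P minus L/Z, cKO, PD 52).

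For stage, the members called lower were 1 with that scaling, 1 over protein-coding genes only, 2 by voom and 0 to 10 without 1 library, the 10 without P WT at PD 52 and 1 without L/Z WT at PD 52. For age they were 0 with no filter on low FPKM, 2 by voom, 0 with the pair as a block and 0 to 28 without 1 library, the 28 without P WT at PD 52. For genotype by age they were 2 by voom. No other call changed with the block.

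As a share of recovered reads, the core sum over the median library was 1.11 in L/Z WT, 1.81 in L/Z cKO, 0.956 in P WT and 1.04 in P cKO at PD 24, and 0.816, 0.832, 1.83 and 0.756 in that order at PD 52. Over core members sharing fewer than 50% of stretches it was 1.58 in L/Z cKO, 1.02 in P WT and 0.931 in P cKO at PD 24, and 0.945 in L/Z WT, 1.959 in P WT and 0.782 in P cKO at PD 52.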
